A study of Setaria viridis with 22 samples.

Results

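Sevir.2G038500 and Sevir.2G038600 carry consecutive identifiers on chromosome 2 of *Setaria viridis* (green millet), and both had lower transcript levels in *spp1* inflorescences than in wild type. These 2 of the 35214 genes in the expression table were chosen on their lower FPKM values in *spp1*, so the difference between genotypes is described here without a test. FPKM counts sequenced fragments relative to the length of the transcript and to all fragments mapped in the library. The remaining identifiers from Sevir.2G038000 to Sevir.2G039100, 10 in number, were set beside the pair as its flanks.

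The study set whole young inflorescences of wild-type plants (accession A10.1) against those of the *spp1* (sparse panicle1) mutant, which was isolated in the A10.1 background and is defective in an auxin importer. Tissue was dissected at 10, 12, and 14 days after sowing (DAS). There were 4 libraries of each genotype at the first and last stage and 3 at 12 DAS, which makes 22 libraries in 6 groups. Each library came from a pool of many inflorescences from plants grown in controlled conditions, and the labels name no batch. The paper states that the A10.1 reads had also been deposited earlier, with a previous study. Whether both genotypes were grown and sequenced together is not stated in the sources used here. Because *spp1* is a single mutant line set against its parent accession, SPP1 and any other difference carried by that line cannot be told apart. A batch that followed genotype could not be told apart from genotype either.

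Auxin importers of the AUX1 family carry auxin into plant cells, and directional auxin flow marks where branches and flowers arise on a grass inflorescence. Between the stages sampled, a Setaria inflorescence goes from forming branch meristems to forming spikelets and bristles. The deposited annotation calls Sevir.2G038500 "uncharacterized LOC101762363" and Sevir.2G038600 "uncharacterized LOC101762764". Both have the same best match in rice, LOC_Os02g34920.1, described there as a putative apomixis-related protein named Pca21. Apomixis is seed formation without fertilization. The rice description is only a name carried over by sequence similarity, and no Arabidopsis or maize match is listed for either gene. Both genes also list the same foxtail millet (*Setaria italica*) genes, Seita.2G033700.1 and Seita.2G033800.1, as counterparts. Among 2952 genes with a deposited annotation, 0 others have that rice match. The rest of the 35214 genes carry no such annotation, so further related copies could not be looked for among them. The shared matches mark the pair as related copies, so the division of reads between them is uncertain. The sum of both FPKM values is therefore given as well.

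Between 10.4 M and 24.3 M first reads mapped in each library, with mapping rates of 86.69% to 93.22%. Replicate 4 of *spp1* at 14 DAS had both the fewest mapped reads and the lowest rate, and it stood apart from all other libraries on the second principal component. SPP1 (Sevir.5G392400), the mutated gene, had 21.2 to 38.1 FPKM in A10.1 and 16.5 to 29.9 FPKM in *spp1*. Its genotypes overlapped at 10 DAS but not at 12 or 14 DAS, and its adjusted p by limma was 0.960, 0.143, and 0.0720 at the successive stages. Homologs of maize genes active in young inflorescences were detected. SvBA1 (Sevir.5G374100), which encodes a transcription factor of branch initiation, ranged from 0 to 98.0 FPKM and was at 0 in 1 library, replicate 3 of *spp1* at 10 DAS. The BIF2 homolog (Sevir.3G410700), encoding a protein kinase, ranged from 12.1 to 153 FPKM, and SvVT2 (Sevir.5G116300), encoding an auxin biosynthesis enzyme, from 12.8 to 39.1 FPKM.

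Sevir.2G038500 was low at 10 DAS. Replicates 1 to 4 of A10.1 had 2.50, 3.19, 2.43, and 2.18 FPKM (2.58 ± 0.43, SD, n = 4), and those of *spp1* had 1.32, 0.96, 0.38, and 2.04 FPKM (1.18 ± 0.69, SD, n = 4). The highest *spp1* library lay just under the lowest A10.1 library, by a factor of 1.07. At 12 DAS the level was 16.4, 13.8, and 14.5 FPKM in A10.1 (14.9 ± 1.32, SD, n = 3) against 6.31, 5.34, and 4.90 FPKM in *spp1* (5.52 ± 0.72, SD, n = 3). The groups were well apart at this stage, with the lowest A10.1 library 2.19 times the highest *spp1* library. At 14 DAS the 4 A10.1 libraries had 26.2, 29.4, 20.8, and 24.2 FPKM (25.1 ± 3.64, SD, n = 4), and the 4 *spp1* libraries had 13.8, 15.8, 14.2, and 12.5 FPKM (14.1 ± 1.37, SD, n = 4). Again no *spp1* library reached the A10.1 range.

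Sevir.2G038600 started from a similar level in A10.1 and from a lower level in *spp1*. At 10 DAS its values were 2.63, 3.04, 2.0, and 2.99 FPKM in A10.1 (2.66 ± 0.48, SD, n = 4) and 0.33, 0.31, 0.27, and 0.84 FPKM in *spp1* (0.44 ± 0.27, SD, n = 4). Replicate 4 of *spp1* was well above the other *spp1* libraries, but still below every A10.1 library. At 12 DAS A10.1 had 16.3, 16.9, and 17.9 FPKM (17.0 ± 0.83, SD, n = 3), whereas *spp1* had 3.54, 3.25, and 3.49 FPKM (3.43 ± 0.16, SD, n = 3). The replicates were tight in both genotypes, with coefficients of variation of 4.90% and 4.52%. At 14 DAS the values were 37.0, 43.1, 31.8, and 34.9 FPKM in A10.1 (36.7 ± 4.78, SD, n = 4) and 8.88, 8.57, 9.45, and 9.81 FPKM in *spp1* (9.18 ± 0.56, SD, n = 4). The lowest A10.1 library was 3.24 times the highest *spp1* library.

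**Figure D1:**
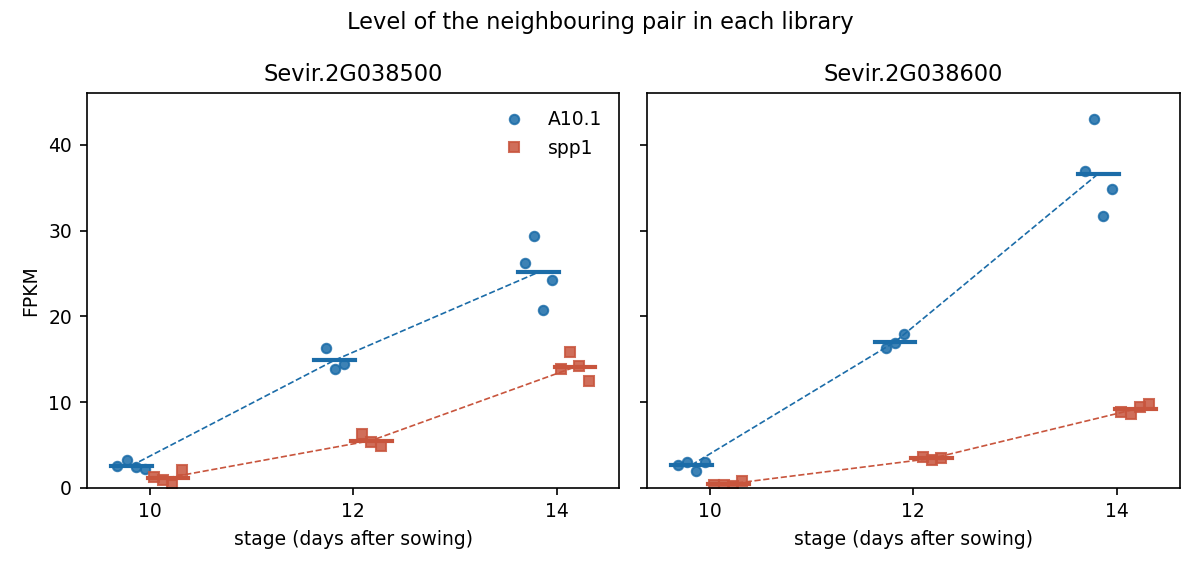
FPKM (y axis) of Sevir.2G038500 and Sevir.2G038600 in each of the 22 libraries by stage in days after sowing (x axis), with A10.1 as blue circles and *spp1* as red squares; horizontal bars are group means, joined by dashed lines, and the points of a stage are spread sideways for legibility. Levels climb with stage in both genotypes, and the *spp1* points lie below the A10.1 points at every stage, with means of 9.18 against 36.7 FPKM for Sevir.2G038600 at 14 DAS.

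Mean levels of Sevir.2G038500 in *spp1* were 45.6%, 37.0%, and 56.0% of those in A10.1 at 10, 12, and 14 DAS. For Sevir.2G038600 the corresponding shares were 16.4%, 20.1%, and 25.03%. Sevir.2G038600 was thus 6.09-, 4.97-, and 4.0-fold lower in *spp1* on the scale of mean FPKM, and Sevir.2G038500 was 2.19-, 2.70-, and 1.78-fold lower. The absolute gap widened with stage. It was 2.23, 13.6, and 27.5 FPKM for Sevir.2G038600 and 1.40, 9.38, and 11.1 FPKM for Sevir.2G038500. On the log2(FPKM + 1) scale, which understates changes of low levels, the difference of *spp1* minus A10.1 for Sevir.2G038600 was -1.36 ± 0.16 (SE) at 10 DAS, -2.03 ± 0.10 at 12 DAS, and -1.88 ± 0.11 at 14 DAS. For Sevir.2G038500 it was -0.77 ± 0.22, -1.29 ± 0.12, and -0.79 ± 0.12. With a pseudocount of 0.1 the values at 10 DAS were -2.46 for Sevir.2G038600 and -1.25 for Sevir.2G038500. Without replicate 4 of *spp1* at 14 DAS, the library that stood apart, the last values were -1.91 ± 0.11 for Sevir.2G038600 and -0.73 ± 0.12 for Sevir.2G038500. In whole inflorescences, fewer cells of a type and less RNA per cell cannot be told apart.

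For both genes of the pair, no *spp1* library reached the lowest A10.1 library at any of the 3 stages. Over all genes that passed a minimum mean of 1 FPKM, the share with that arrangement was 1.27% at 10 DAS, 5.42% at 12 DAS, and 10.2% at 14 DAS. Of 17008 genes tested at every stage, 47 had it at all of them. Of 9760 pairs of neighbouring identifiers with both genes tested at every stage, only this pair had it for both genes throughout. Since the pair was chosen for its lower level in *spp1*, these counts describe the choice.

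The summed FPKM of both genes depends on how reads were divided between them only as far as their transcripts differ in length. In A10.1 the sum was 5.24 ± 0.74 FPKM at 10 DAS (SD, n = 4), 31.9 ± 1.05 at 12 DAS (SD, n = 3), and 61.8 ± 8.38 at 14 DAS (SD, n = 4). In *spp1* it was 1.61 ± 0.94, 8.94 ± 0.79, and 23.3 ± 0.95 FPKM (SD, same n). The genotypes did not overlap at any stage for the sum either, and *spp1* had 30.8%, 28.0%, and 37.6% of the A10.1 level.

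The balance between the genes also differed. The ratio of Sevir.2G038600 to Sevir.2G038500 within a library lay between 0.82 and 1.53 in the 11 A10.1 libraries and between 0.25 and 0.79 in the 11 *spp1* libraries. It was above 1 in 8 of the 11 A10.1 libraries and below 1 in all 11 *spp1* libraries. In A10.1 its mean was 1.05 ± 0.23 at 10 DAS (SD, n = 4), 1.15 ± 0.14 at 12 DAS (SD, n = 3), and 1.46 ± 0.05 at 14 DAS (SD, n = 4). In *spp1* it was 0.42 ± 0.20, 0.63 ± 0.08, and 0.66 ± 0.10 (SD, same n). Because both levels entered the choice of the pair, the genotype difference of the ratio is a description. Inside a genotype, the ratio was compared between stages in 6 tests, whose adjusted values could not fall below 0.0571 with these few libraries. The A10.1 ratio at 14 DAS exceeded that at 10 DAS without overlap, with a two-sided exact permutation p of 0.0286 and a Benjamini-Hochberg adjusted value of 0.171 over the 6 comparisons.

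**Figure D2:**
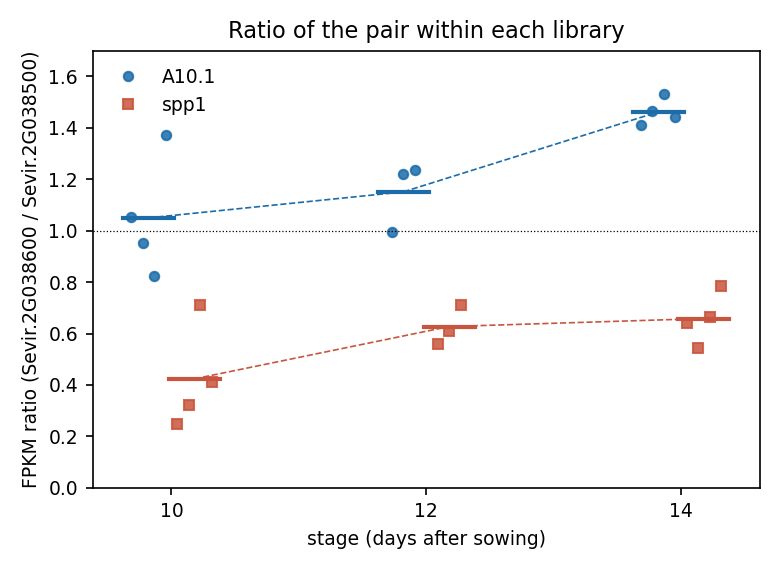
Ratio of Sevir.2G038600 to Sevir.2G038500 in FPKM (y axis) within each library by stage in days after sowing (x axis); blue circles are A10.1, red squares are *spp1*, horizontal bars are group means, and the dotted line marks equal levels. All 11 *spp1* libraries lie between 0.25 and 0.79, below the lowest A10.1 library at 0.82.

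Change with stage inside each genotype is a different contrast from the one that chose the pair, though it rests on the same FPKM values. The members were also chosen with earlier results of these data known. Both genes rose from 10 to 12 DAS and again from 12 to 14 DAS in A10.1, and both rose in each interval in *spp1* as well (limma on log2(FPKM + 1), adjusted over all genes tested). From 10 to 12 DAS in A10.1, Sevir.2G038600 rose by 2.31 ± 0.12 (SE; adjusted p = 1.35e-06) and Sevir.2G038500 by 2.16 ± 0.13 (adjusted p = 1.70e-06). These were 6.39-fold and 5.79-fold changes of the mean FPKM, and they ranked 22 and 30 among the rises of 17871 genes. Over all genes, 6.84% rose past the threshold (adjusted p under 0.05) in this interval. From 12 to 14 DAS the rise in A10.1 was smaller, at 1.06 ± 0.12 for Sevir.2G038600 (adjusted p = 0.000558) and 0.71 ± 0.13 for Sevir.2G038500 (adjusted p = 0.00677). In this interval 2.44% of genes rose past the threshold. Across the whole period in A10.1, Sevir.2G038600 rose 13.8-fold and Sevir.2G038500 rose 9.76-fold in mean FPKM (adjusted p = 2.40e-09 and 9.87e-09), where 31.4% of genes rose past the threshold.

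In *spp1* the pair rose from a lower base. From 10 to 12 DAS the change was 1.64 ± 0.14 for Sevir.2G038600 (adjusted p = 0.000431) and 1.63 ± 0.21 for Sevir.2G038500 (adjusted p = 0.00365). These were ranks 26 and 28 among 17902 genes, of which 1.12% rose past the threshold. With a pseudocount of 0.1 the change of Sevir.2G038600 in this interval was 2.82 (adjusted p = 0.000936). From 12 to 14 DAS, where 0.676% of genes rose past the threshold, the change was 1.20 ± 0.14 for Sevir.2G038600 (adjusted p = 0.00313) and 1.21 ± 0.21 for Sevir.2G038500 (adjusted p = 0.0187). The last of these calls was the least secure. It was lost without replicate 2 or replicate 4 of *spp1* at 12 DAS (adjusted p = 0.104 and 0.105), without replicate 3 of *spp1* at 14 DAS (adjusted p = 0.0578), and with a pseudocount of 0.1 (adjusted p = 0.131). Leaving out replicate 4 of *spp1* at 14 DAS kept both calls, at 1.17 ± 0.15 for Sevir.2G038600 (adjusted p = 0.00637) and 1.27 ± 0.23 for Sevir.2G038500 (adjusted p = 0.0276). Across the whole period in *spp1*, mean FPKM rose 21.0-fold for Sevir.2G038600 and 12.0-fold for Sevir.2G038500 (adjusted p = 5.62e-07 and 4.71e-06). Of all genes, 8.11% rose past the threshold. The 21.0-fold change starts from a mean of only 0.44 FPKM at 10 DAS.

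No library of a later stage overlapped one of an earlier stage of its genotype for either gene or for their sum. Each of the 18 comparisons of these 3 levels between stages gave the smallest p that a two-sided exact permutation test allows, 0.0286 for 4 against 4 libraries and 0.0571 for 4 against 3. The adjusted value over the 18 was 0.0571, so these few libraries cannot pass 0.05 by that test alone. Scaling each library by its median ratio shifted the median change of all genes by -0.11 for 14 against 10 DAS in A10.1 and by 0.10 for the genotypes at 14 DAS. With that scaling the A10.1 rise over the whole period was 3.25 for Sevir.2G038600 and 2.75 for Sevir.2G038500 on the log2(FPKM + 1) scale, and the genotype difference at 14 DAS was -1.77 and -0.68.

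Set side by side, the change from 10 to 12 DAS of Sevir.2G038600 was 2.31 in A10.1 and 1.64 in *spp1*, and that from 12 to 14 DAS was 1.06 and 1.20. For Sevir.2G038500 the changes were 2.16 and 1.63 in the first interval and 0.71 and 1.21 in the second. With a pseudocount of 0.1 the order of the first interval turned for Sevir.2G038600, to 2.65 in A10.1 and 2.82 in *spp1*, and its mean FPKM rose 6.39-fold in A10.1 and 7.83-fold in *spp1*. For Sevir.2G038500 it did not turn, at 2.50 and 2.32. Over the whole period the change of Sevir.2G038600 was 3.36 in A10.1 and 2.84 in *spp1*, and with a pseudocount of 0.1 it was 3.74 and 4.22. That of Sevir.2G038500 was 2.87 and 2.85, and with a pseudocount of 0.1 it was 3.24 and 3.66. For Sevir.2G038600 in the first interval and for both genes over the whole period, the genotype with the larger change thus depended on the pseudocount. From 12 to 14 DAS it did not, with 1.09 in A10.1 and 1.39 in *spp1* for Sevir.2G038600 and 0.74 and 1.34 for Sevir.2G038500 at 0.1. In absolute FPKM the gain in that interval was larger in A10.1, at 19.6 against 5.75 for Sevir.2G038600 and 10.2 against 8.57 for Sevir.2G038500. The difference between genotypes in these changes was not tested, because it contains the contrast that chose the pair.

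Ordered by mean level, both genes gave the same sequence of groups, which was *spp1* at 10 DAS, A10.1 at 10 DAS, *spp1* at 12 DAS, *spp1* at 14 DAS, A10.1 at 12 DAS, and A10.1 at 14 DAS. Neighbours in this order did not overlap for Sevir.2G038600. For Sevir.2G038500 they overlapped once, between *spp1* at 14 DAS (12.5 to 15.8 FPKM) and A10.1 at 12 DAS (13.8 to 16.4 FPKM). The mean of Sevir.2G038500 in *spp1* at 14 DAS was 94.6% of its A10.1 mean at 12 DAS, whereas that of Sevir.2G038600 was 53.9%, with 8.57 to 9.81 FPKM against 16.3 to 17.9 FPKM. At 12 DAS both genes in *spp1* were above their A10.1 level at 10 DAS, at 214% and 129% of it. Of the 3 inflorescence genes named above, SvBA1 had higher means at later stages and lower means in *spp1*, with 3.65, 48.1, and 77.2 FPKM in A10.1 and 1.82, 16.2, and 33.0 FPKM in *spp1* at 10, 12, and 14 DAS. The others did not follow that course throughout. The BIF2 homolog had 19.3, 60.2, and 84.2 FPKM in A10.1 and 23.4, 44.8, and 88.6 FPKM in *spp1*, and SvVT2 had 17.4, 33.0, and 21.4 FPKM in A10.1 and 13.8, 18.6, and 19.2 FPKM in *spp1*. The part of developmental stage in the difference of the pair was not tested.

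None of the flanking identifiers that could be tested with limma passed the test between genotypes at any stage. At 10 DAS only 5 of 17937 genes (0.0279%) passed, and at 12 and 14 DAS 0.288% and 1.93% did. With such shares, 0 calls among 3 tested flanks would be usual, so no stage could set the flanks apart from other genes. Among the wider neighbours described below, 1 of the 24 tested at 14 DAS passed. At that stage 11 of the 24 (45.8%) had an unadjusted limma p under 0.05, beside 22.9% of all genes. The difference was below 0 in 16 of the 24, beside 64.6% of all genes. Of the 10 flanking identifiers, 4 were listed at 0 in every library, among them Sevir.2G038400, the next identifier before the pair. Another 3 stayed under 1 FPKM in every library. Among these was Sevir.2G038700, the next identifier after the pair, which was at 0 in all A10.1 libraries at 10 DAS and had 0.73, 0.28, 0.66, and 0.46 FPKM in A10.1 at 14 DAS. Its *spp1* libraries at 14 DAS had 0.00, 0.17, 0.33, and 0.00 FPKM, which overlapped the A10.1 range (two-sided exact permutation p = 0.0571, adjusted p = 0.514 over 18 comparisons).

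The other 3 flanks, Sevir.2G038100, Sevir.2G038900, and Sevir.2G039000, passed the minimum mean of 1 FPKM and could be tested with limma. At an adjusted p of 0.05, 0 of the 3 differed between genotypes at 10, 12, or 14 DAS, where 0.0279%, 0.288%, and 1.93% of all genes did. At an unadjusted p under 0.05 the counts were 0, 0, and 1, where 4.16%, 9.05%, and 22.9% of all genes had such a p. The 1 was Sevir.2G038900, the most abundant flank. It had 25.5 to 28.8 FPKM in A10.1 at 14 DAS and 23.3 to 23.9 FPKM in *spp1*, a difference of -0.19 ± 0.08 (SE, adjusted p = 0.195). At 10 and 12 DAS its genotypes overlapped, with differences of -0.03 ± 0.09 and -0.01 ± 0.09. In A10.1 Sevir.2G038900 rose slightly, from 22.8 ± 1.59 FPKM at 10 DAS to 27.1 ± 1.35 FPKM at 14 DAS (SD, n = 4 each; limma adjusted p = 0.0212). In *spp1* it changed by 0.08 on the log2(FPKM + 1) scale (adjusted p = 0.495). Over the same period Sevir.2G038100 rose by 0.51 in A10.1 (adjusted p = 0.0315) and by 0.62 in *spp1* (adjusted p = 0.000722). Sevir.2G039000 changed by -0.64 in A10.1 (adjusted p = 0.0412) and by -0.27 in *spp1* (adjusted p = 0.471). Both members of the pair rose 9.76-fold or more.

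The 25 identifiers on each side of the pair were examined in the same way. Of these 50, 22 could be tested at 10 DAS, 23 at 12 DAS, and 24 at 14 DAS. None passed at 10 or 12 DAS by limma, where 0 of 22 and 1 of 23 had an unadjusted p under 0.05, beside 4.16% and 9.05% of all genes. Only 0.0279% and 0.288% of all genes passed at these stages, so the lack of a call could not set these neighbours apart either. At 14 DAS 1 passed, Sevir.2G037400, which lies 11 identifiers before the pair and was named after its values were seen. It is annotated as a probable inositol transporter. Its A10.1 libraries at 14 DAS had 25.9, 33.5, 25.3, and 23.5 FPKM and its *spp1* libraries 13.4, 9.93, 11.5, and 11.1 FPKM, a difference of -1.16 ± 0.13 (SE, adjusted p = 0.00386). Unlike the pair, it had differences of 0.26 ± 0.14 at 10 DAS and 0.11 ± 0.13 at 12 DAS. The median difference over the tested neighbours was -0.01, 0.00, and -0.17 at the successive stages, beside -0.02, 0.00, and -0.10 over all genes. At 14 DAS 11 of the 24 (45.8%) had an unadjusted p under 0.05, as did 22.9% of all genes. The difference was below 0, as for the pair, in 16 of the 24, beside 64.6% of all genes. After Sevir.2G037400 the lowest was Sevir.2G037300 at -0.57 ± 0.22 (SE), and the highest was Sevir.2G040700 at 0.30 ± 0.10.

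**Figure D3:**
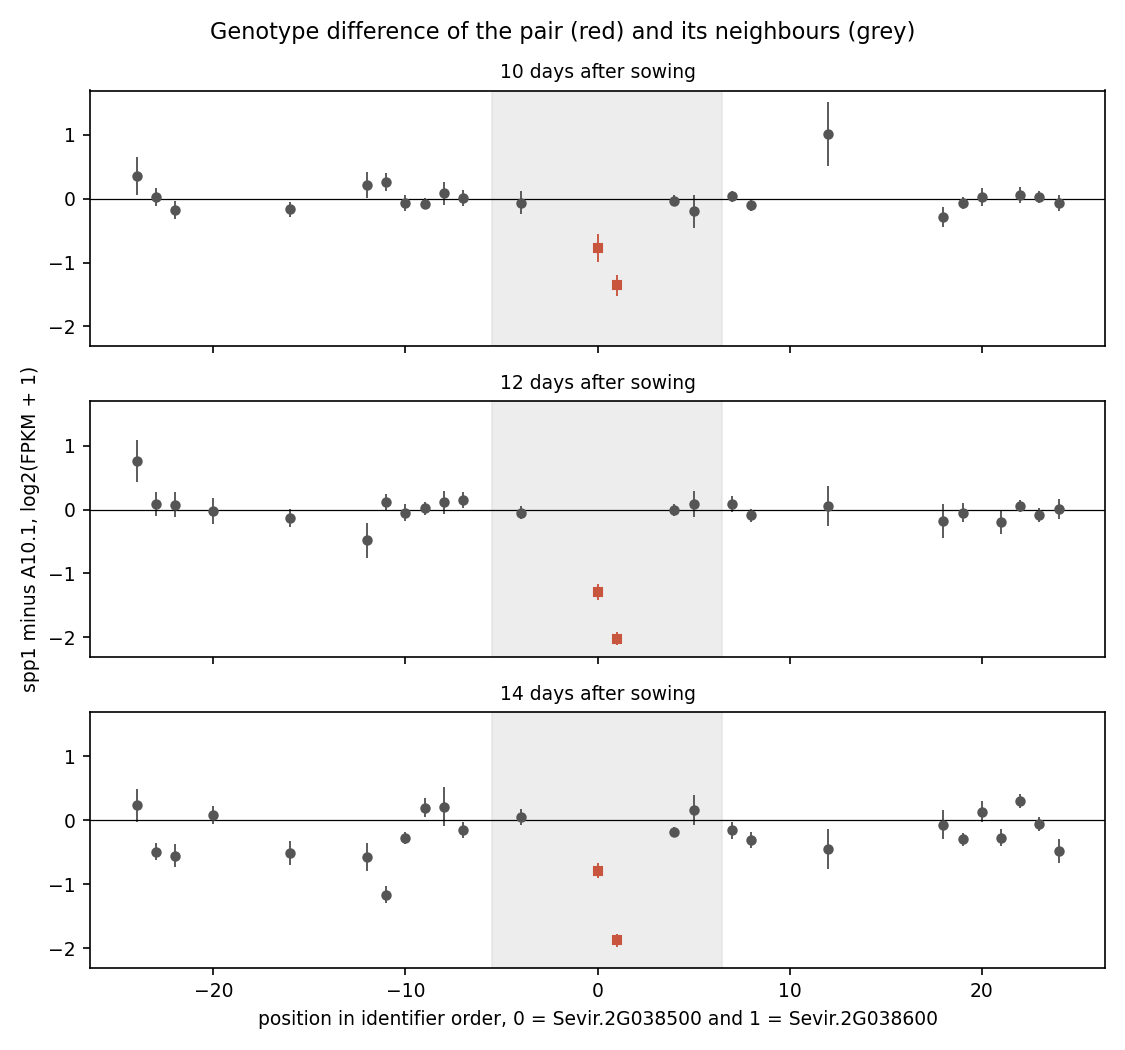
Difference between genotypes (*spp1* minus A10.1, log2(FPKM + 1), y axis, with bars of 1 SE) of the pair (red squares) and of the tested genes among the 25 identifiers on each side (grey circles), by position in identifier order (x axis) at each stage; the shaded band holds the flanks Sevir.2G038000 to Sevir.2G039100, and untested identifiers are blank. The pair stands at -0.77 and -1.36 at 10 DAS, -1.29 and -2.03 at 12 DAS, and -0.79 and -1.88 at 14 DAS, with the 3 tested flanks between -0.20 and 0.16.

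Other genes followed the pattern of the pair. Over the 22 libraries, Pearson's r on log2(FPKM + 1) between the members was 0.97, and Sevir.2G038600 ranked 37 among the 17895 genes compared with Sevir.2G038500. Inside the 11 A10.1 libraries r was 0.99, and inside the 11 *spp1* libraries it was 0.99. After the group means were subtracted, r between the members over the 22 libraries was 0.60. These correlations are descriptions, since libraries of a group share their stage and genotype and the pair may share reads.

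The gene most like the mean of the pair over the 22 libraries was Sevir.7G277300 (r = 0.99), an XH/XS domain protein. Proteins with these domains act in RNA-directed DNA methylation in Arabidopsis. Its mean was 1.82, 7.42, and 11.1 FPKM in A10.1 and 0.79, 3.06, and 5.88 FPKM in *spp1* at 10, 12, and 14 DAS, so *spp1* had 43.5%, 41.2%, and 53.1% of the A10.1 level. The next were Sevir.9G163100, annotated as a probable E3 ubiquitin ligase of the ARI1 type (r = 0.99), Sevir.9G138300 and Sevir.1G165900, both ankyrin repeat proteins (r = 0.99 and 0.98), and Sevir.4G053800, a DCD domain protein (r = 0.98). Every one of these 5 had a lower mean in *spp1* at each stage. At 10 DAS, however, their *spp1* means were all under 1 FPKM, and the genotypes overlapped for Sevir.9G138300 and Sevir.1G165900. Their levels in *spp1* ranged from 26.6% of A10.1, for Sevir.9G138300 at 12 DAS, to 63.2%, for the same gene at 10 DAS, where its genotypes overlapped. Sevir.2G038600, at 16.4% to 25.03%, lay below that range at every stage. Over the 22 libraries, 60 of 17896 genes (0.335%) had r over 0.95 with the mean of the pair. Since likeness over all libraries contains the genotype difference, these values carry no test.

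Likeness over the A10.1 libraries alone does not contain that difference. The 3 genes most like the pair there were Sevir.9G138300, Sevir.5G084400, a second XH/XS domain protein, and Sevir.6G018300, an F-box protein with leucine-rich repeats, each with r of 1.00 after rounding. High values were not rare there, as 297 of 17871 genes (1.66%) had r over 0.95. Sevir.9G138300 fell in *spp1* by 1.63 at 12 DAS and by 1.16 at 14 DAS on the log2(FPKM + 1) scale (adjusted p = 0.00745 and 0.0102). At 10 DAS its mean was too low for a test. Sevir.5G084400 fell by 0.71 at 14 DAS (adjusted p = 0.0215) and had differences of -0.63 at 10 DAS (adjusted p = 0.681) and -0.98 at 12 DAS (adjusted p = 0.0687). Sevir.6G018300 passed at no stage, with differences of 0.02, -0.52, and -0.26 (adjusted p = 0.991, 0.218, and 0.156). It held 104%, 69.1%, and 83.4% of its A10.1 level in *spp1*. For each of these 3 genes no *spp1* library reached the lowest A10.1 library at 12 or 14 DAS, as for 5.42% and 10.2% of all genes. These 3 genes had *spp1* levels at 14 DAS between 41.9% and 83.4% of A10.1, beside 56.0% for Sevir.2G038500 and 25.03% for Sevir.2G038600.

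**Figure D4:**
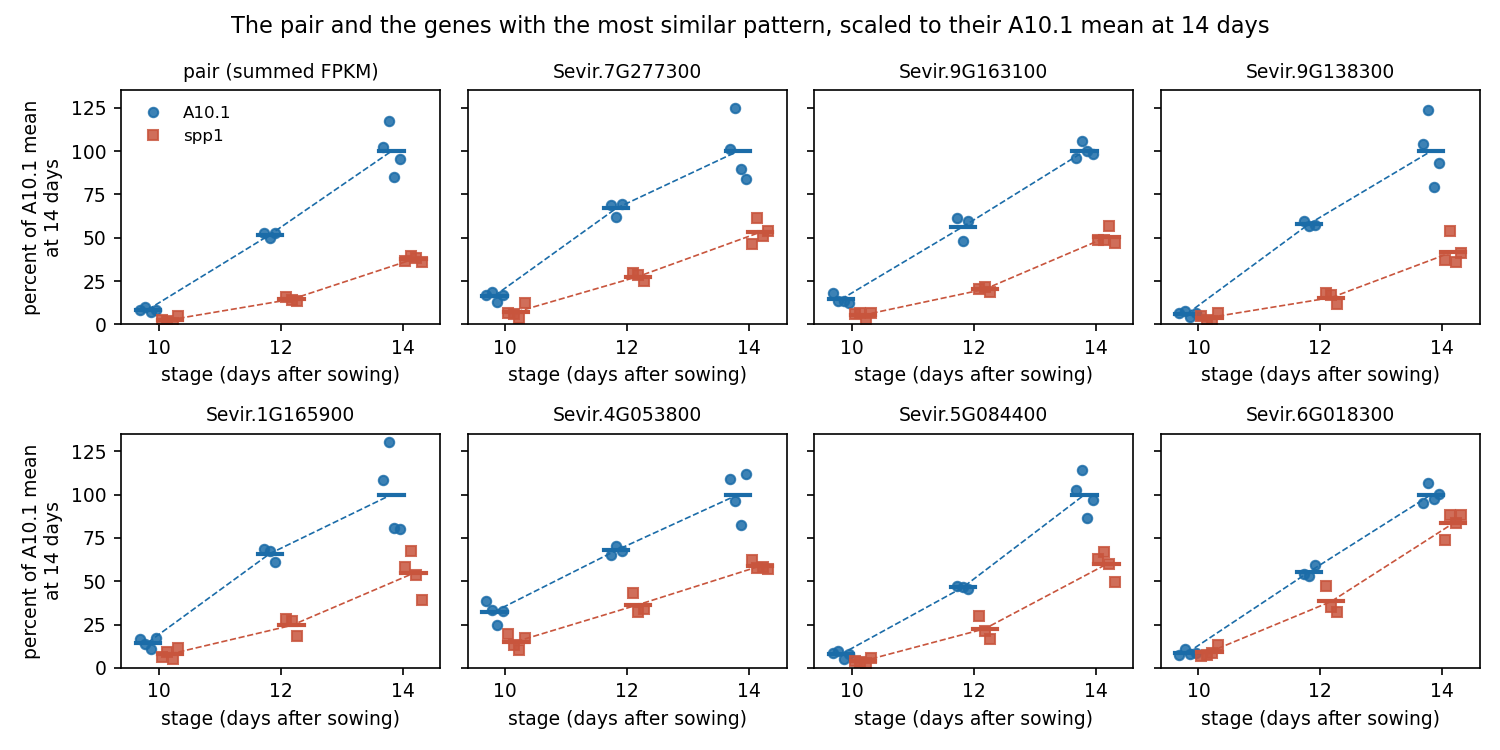
Level of the pair (summed FPKM) and of the 7 genes named for their similar pattern, in percent of the A10.1 mean at 14 DAS (y axis) for each library by stage in days after sowing (x axis); blue circles are A10.1, red squares are *spp1*, and horizontal bars are group means. At 14 DAS the *spp1* mean is 37.6% for the pair and 83.4% for Sevir.6G018300, the highest of the genes shown.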

How the data were processed

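RNA from pooled whole inflorescences was sequenced as paired ends of 22 libraries. The authors trimmed reads with Trimmomatic, checked them with FastQC, mapped them with TopHat2 to an index of version 1 of the genome made with Bowtie2, and ran Cuffdiff (versions not given in the sources used here). They deposited FPKM values for 35214 primary transcripts and, for each library, the percent of reads mapped. Deposited means, fold changes, and q-values of their own comparison were not used, and from those tables only the gene annotation was taken. Mapped reads per library are given, but transcript lengths and fragment counts per gene are not given in the sources used here. Counting intervals and detection limits were therefore left out, and nothing states how reads shared by related genes were divided.

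Values were analysed as log2(FPKM + 1) in R 4.3.3 with limma 3.58.1 (empirical Bayes with trend), keeping genes whose mean in the fitted libraries was 1 FPKM or more, with Benjamini-Hochberg adjustment within each comparison and a threshold of 0.05. Both members passed this filter in every comparison, Sevir.2G038600 at 10 DAS through its A10.1 libraries. Changes between stages were fitted on the 11 libraries of a genotype, and differences between genotypes on the libraries of a stage. Exact permutation tests were two-sided, at double the smaller tail. Python 3.11.15 and matplotlib 3.10.9 were used for the plots. The fits were tested on simulated data. Of 200 genes shifted by 1.5 (log2), each comparison recovered 99% to 100%, and 5 to 17 unchanged genes were called. Smaller shifts, such as some changes of the pair and the differences of the flanks, were not simulated. No 2 libraries held identical values. Replicates were separate pools of inflorescences.

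The members, the flanks, and the lists were chosen with earlier results of these data known. Genes named beside the members are the adjoining identifiers, the most abundant flank, SPP1, the 5 genes with the highest Pearson's r with the mean of both members over 22 libraries, and the 3 with the highest over the A10.1 libraries. The rule also covers any flank past the threshold and any other annotated gene with the same rice match, and there was none. The SvBA1, BIF2, and SvVT2 homologs are named as markers of the tissue, and Sevir.2G037400 and the other wider neighbours that passed were named after their values were seen. Alternatives were a pseudocount of 0.1, scaling by median ratio, no filter, a minimum mean of 5 FPKM, a replicate block, 1 fit of all 22 libraries, leaving out each library in turn, Spearman's rho, and the summed FPKM of both members. The reference table of gene symbols matched 0 identifiers of the members, so no coordinates or sequences are given.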

Additional observations from a re-analysis of the deposited data

Results flagged for a closer look

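In *spp1* at 10 DAS, replicate 4 had 0.84 FPKM of Sevir.2G038600, far from the other replicates at 0.27 to 0.33 FPKM. The gap to the nearest library was 0.895 of the range of the group, above the limit of Dixon's test for 4 values. This was 1 of 32 groups of 4 libraries examined, and chance flags about 1 in 20 groups. The same library was also the highest of its group for Sevir.2G038500, at 2.04 FPKM, and for 6 of the 7 genes named for their similar pattern. Without it, the difference of *spp1* minus A10.1 at 10 DAS was -1.48 for Sevir.2G038600 and -0.95 for Sevir.2G038500 on the log2(FPKM + 1) scale, beside -1.36 and -0.77 with all libraries.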

How the results depend on the processing

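The 12 changes of the members between stages kept their direction and their side of the threshold under every alternative and left-out library except 1, though the rise of Sevir.2G038600 from 10 to 12 DAS in *spp1* moved from 1.64 to 2.82 with a pseudocount of 0.1. The rise of Sevir.2G038500 from 12 to 14 DAS in *spp1* was 1.34 with a pseudocount of 0.1 (adjusted p = 0.131) and 1.14 to 1.30 on leaving out 1 library (adjusted p = 0.0276 to 0.105, lost for 3 of the 7). A minimum mean of 5 FPKM left Sevir.2G038600 out of the *spp1* fits. With a pseudocount of 0.1 the genotype difference was -1.25 for Sevir.2G038500 and -2.46 for Sevir.2G038600 at 10 DAS, and -2.28 for Sevir.2G038600 at 12 DAS. For the summed FPKM it was -1.32, -1.73, and -1.36 at the successive stages. The number of flanks past the threshold stayed at 0. Of the wider neighbours at 14 DAS, 2 passed after median ratio scaling (with Sevir.2G040700), in 1 fit of all 22 libraries (with Sevir.2G036200), and without replicate 4 of *spp1* (with Sevir.2G037300), and leaving out single libraries gave 1 to 2. With Spearman's rho, 3 of the 5 most similar genes remained and Sevir.2G038600 ranked 19 instead of 37 among the genes most like Sevir.2G038500.

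Both genotypes carry the same replicate numbers. After group means were subtracted, libraries with the same number correlated between -0.17 and 0.52 over all pairs of groups compared. Both ends of that range were between *spp1* at 12 and 14 DAS, and across genotypes at 12 DAS the highest was 0.35. In no pair of groups were all correlations over 0.1, and nothing says what a number marks, so the numbers were not taken to pair the libraries. With the replicate block, the rise from 10 to 12 DAS in A10.1 was 2.11 for Sevir.2G038500 and 2.23 for Sevir.2G038600, and the block changed no call. The number of libraries and the low FPKM at 10 DAS limit the precision of the smallest differences.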
